A study of Mus musculus with 12 samples.

Results

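Transcripts of 9 enzymes of the tricarboxylic acid (TCA) cycle were followed in the livers of 12 mice, out of 48795 genes with counts and 13812 genes with enough counts to be tested. The 9 genes were chosen by symbol as Cs, Idh2, Idh3a, Ogdh, Dlst, Sucla2, Suclg1, Fh1 and Mdh2, with no measured value in the rule. The choice was made with earlier results of these data known, so the comparisons with all genes below describe this list only. All 9 were found once and all 9 passed the filter on low counts, with between 591 (Idh3a) and 13722 (Fh1) counts per mouse. The mice were 4-month-old female littermates on normal chow, bred from Nts+/- parents, and the study asked how loss of neurotensin, a gut peptide, affects liver mitochondria. There were 3 mice per group. The Nts+/+ mice had free access to food (fed; mice 254, 257, 323) or none for 22 h before collection (fasted; mice 265, 282, 322). The Nts-/- mice, which lack Nts by label, were likewise fed (mice 277, 303, 319) or without food for 22 h (mice 284, 290, 295). The Nts deletion is of the whole body, so its effect in the liver cannot be told apart from effects through other organs. The labels do not divide the 12 samples into batches, so no batch term was fitted.

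The TCA cycle burns acetyl-CoA in the mitochondrial matrix and passes its electrons to the respiratory chain as NADH and FADH2. In the liver it also supplies carbon for other routes. Oxaloacetate and malate leave it for glucose synthesis during fasting, and citrate leaves it for fatty acid synthesis after feeding. Citrate synthase (Cs) starts the cycle, isocitrate dehydrogenases (Idh3a, Idh2) and the oxoglutarate dehydrogenase complex (Ogdh, Dlst) release CO2, succinyl-CoA ligase (Suclg1, Sucla2) forms a nucleotide triphosphate, and fumarase (Fh1) and malate dehydrogenase (Mdh2) lead back to oxaloacetate.

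Depth was between 21999647 and 45273069 counts per mouse, and the biological coefficient of variation was 0.202. Of 6 hepatocyte markers listed, 5 were matched (Alb, Apoa1, Ttr, Cps1, Hnf4a) and were abundant in every mouse, at 102231 to 133977 summed CPM (counts scaled to library size). Markers of muscle, fat and brown fat were at or near 0 (at most 0.260 summed CPM). No library labelled Nts+/+ had a count on Nts, whereas the fed Nts-/- libraries had 46, 40 and 15 and the fasted Nts-/- ones 12, 4 and 18. These counts go against the labels. A count of 0 in the liver does not show that a gene is missing, however, and gene totals do not show whether the counts fall in the deleted part. Each genotype direction below is that of the deposited labels.

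Fasting raised the transcripts of most of these enzymes. In edgeR's quasi-likelihood test over the mean of both genotypes, 7 of the 9 genes were higher in fasted than in fed livers at an adjusted p under 0.05 (Benjamini-Hochberg over all 13812 genes) and none was lower. Of all tested genes, 32.8% passed this test in either direction and 16.0% passed as higher. The 7 were Fh1, Dlst, Idh3a, Suclg1, Ogdh, Mdh2 and Sucla2, and the 2 others were Cs and Idh2. The median log2 fold change of the 9 genes was 0.63, against -0.0071 over all tested genes. In 6 of the 9 (all of those 7 but Sucla2), each of the 6 fasted mice lay above each of the 6 fed mice, which held for 8.05% of all tested genes.

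Taken within 1 genotype, 6 of the 9 genes passed as higher in Nts+/+ livers, where 18.1% of all genes passed in either direction and 8.91% as higher. In Nts-/- livers 6 of the 9 passed as well, where 16.8% of all genes passed in either direction and 7.70% as higher. In both genotypes the 6 were Fh1, Dlst, Idh3a, Suclg1, Ogdh and Mdh2. The median log2 fold change of the 9 genes was 0.67 in Nts+/+ and 0.59 in Nts-/- livers. All 3 fasted mice lay above all 3 fed mice in 6 of 9 genes in Nts+/+ livers (18.1% of all genes) and in 7 of 9 in Nts-/- livers (17.1% of all genes). Leaving out single mice left 4 to 6 of the genes past the threshold in Nts+/+ livers. For the Nts-/- livers the same step left 3 to 6 genes, with the 3 reached when mouse 277 was left out.

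**Figure D1:**
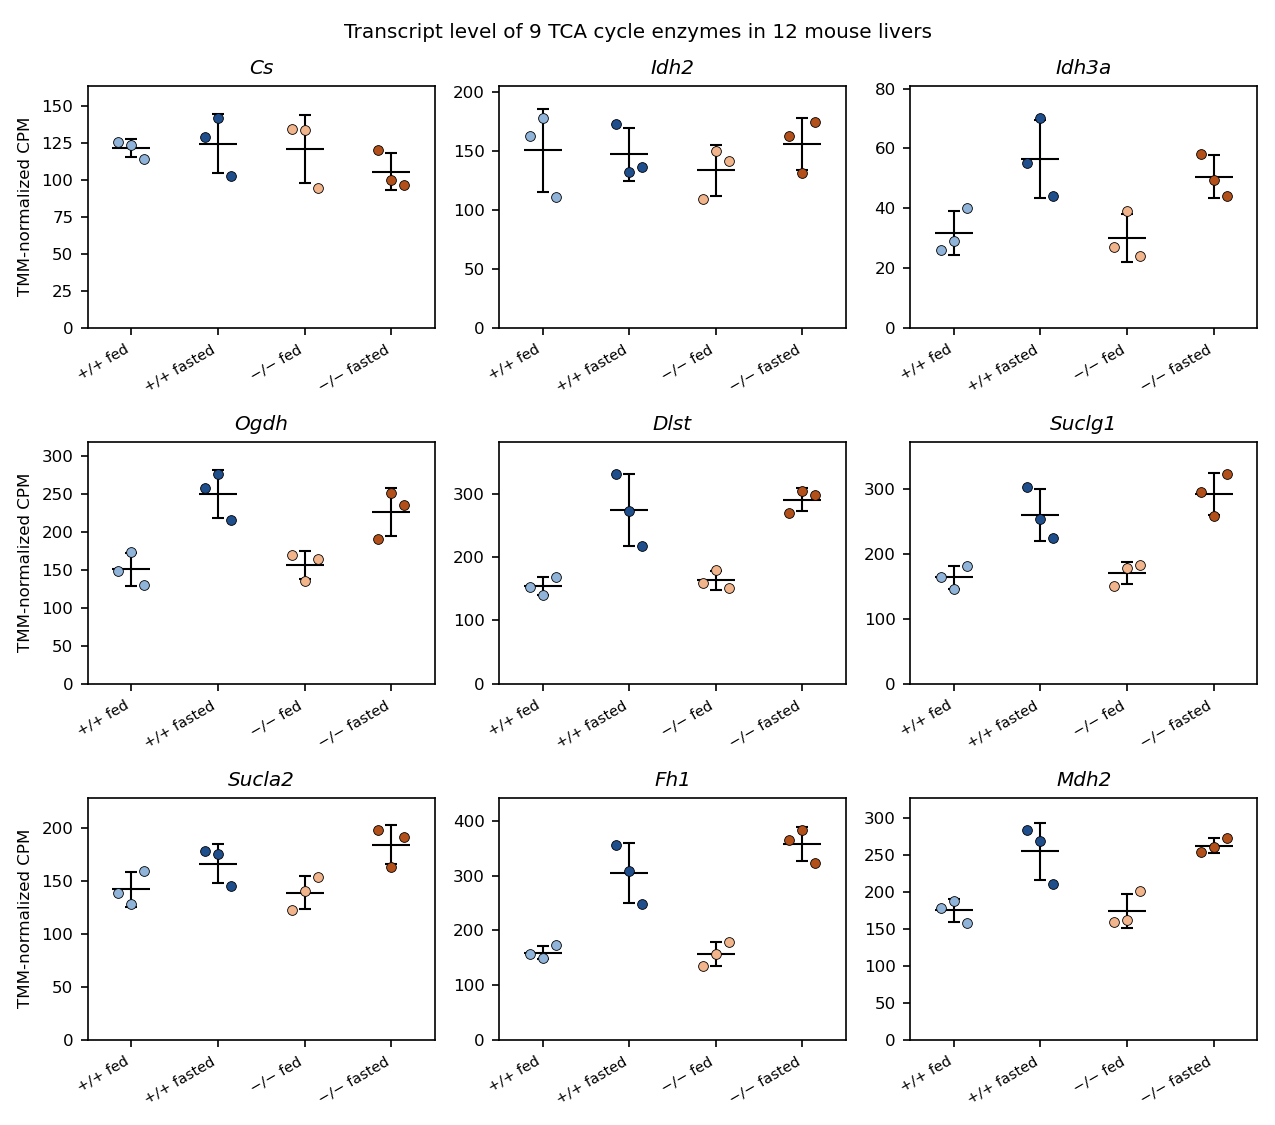
Level of each enzyme's transcript in each mouse (vertical axis, TMM-normalized CPM, starting at 0) by genotype and feeding state. Points are mice, horizontal bars are means and error bars are SD (n = 3). The 6 fasted mice sit above the 6 fed mice for Idh3a, Ogdh, Dlst, Suclg1, Fh1 and Mdh2, and the groups overlap for Cs and Idh2.

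As a share of the deposited counts, with no normalization between mice, fed and fasted livers were also apart. Together the 9 genes took between 0.125% and 0.136% of all counts in the 6 fed mice and between 0.158% and 0.189% in the 6 fasted mice. The lowest fasted mouse was 322 (Nts+/+), which was below its own group's mean for all 9 genes (median deviation -0.26 on the log2 scale). The other fasted mice were at or above 0.181%. In a bulk sample, fewer cells of a type and less RNA per cell cannot be told apart. Summed hepatocyte markers overlapped between fed (102231 to 129900 CPM) and fasted (112544 to 133977 CPM) livers, but most of this sum was Alb. Of the other markers, Apoa1 (log2 fold change 0.86, adjusted p = 0.000784) and Cps1 (0.69, adjusted p = 0.00962) were higher and Ttr (-0.76, adjusted p = 0.000395) was lower in fasted livers. Hnf4a did not pass (0.24, adjusted p = 0.162). All 4 stellate cell markers were detected and their sum was 85.2 to 136 CPM in fed livers of either genotype and 68.3 to 88.0 CPM in fasted ones. Lrat (-0.84, adjusted p = 0.00178), Reln (-0.47, adjusted p = 0.00736) and Colec10 (-0.53, adjusted p = 0.00767) were lower in fasted livers. Des did not pass (-0.38, adjusted p = 0.0701). All 4 sinusoidal endothelial markers were detected, at a sum of 107 to 159 CPM in fed and 89.1 to 110 CPM in fasted livers. Among them Clec4g (-1.11, adjusted p = 2.99e-05) and Kdr (-0.32, adjusted p = 0.0372) were lower in fasted livers. Stab2 did not pass (-0.27, adjusted p = 0.0826), and Lyve1 was higher (0.71, adjusted p = 0.00584). All 4 Kupffer cell markers were detected, at a sum of 378 to 429 CPM in fed and 190 to 323 CPM in fasted Nts+/+ livers, and of 238 to 334 and 247 to 284 CPM in Nts-/- livers. Over both genotypes Clec4f was lower in fasted livers (-0.66, adjusted p = 0.00134), and Adgre1, Cd5l and Vsig4 did not pass. Within each genotype, fed and fasted mice did not overlap for the stellate and endothelial sums. Nor did they for the Kupffer and lymphocyte sums in Nts+/+ livers (lymphocyte 14.6 to 15.5 CPM fed, 9.11 to 10.6 fasted). The same held for the cholangiocyte sum in Nts-/- livers (4.34 to 6.03 CPM fed, 2.84 to 4.16 fasted). Over both genotypes no lymphocyte marker passed. Ptprc, the most abundant of them, had a log2 fold change of -0.35 (adjusted p = 0.152) and Cd79a one of -0.27 (adjusted p = 0.526). Cd3e (0.32, adjusted p = 0.351) and Ms4a1 (0.17, adjusted p = 0.685) went the other way. Of the cholangiocyte markers, Krt19, Epcam and Sox9 did not pass and Krt7 was not tested. The adipocyte sum, near 0, was higher in fasted mice without overlap. It was 0 to 0.0443 CPM fed and 0.163 to 0.190 fasted in Nts+/+, and 0 to 0.0362 and 0.0472 to 0.260 in Nts-/- livers. Among the erythroid markers, Alas2 was lower in fasted livers (-0.77, adjusted p = 0.00323) and Hbb-bs did not pass (0.21, adjusted p = 0.584). Of all tested genes, 18.1% in Nts+/+ and 17.1% in Nts-/- livers had every fasted mouse above every fed mouse. The share for the other direction was not counted. The part of these other cells in the fasting differences was not tested.

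Citrate synthase condenses acetyl-CoA with oxaloacetate and is often used as a measure of mitochondrial content. Its gene, Cs (ENSMUSG00000005683, chromosome 10, 128337832 to 128362479 on GRCm38), did not pass the test in either genotype. In Nts+/+ livers it was at 126, 124 and 114 TMM-normalized CPM in the fed mice and at 128, 142 and 102 in the fasted mice. The Nts-/- mice were at 134, 133 and 94.3 when fed and at 120, 99.8 and 96.3 when fasted. The fed and fasted mice overlapped in both genotypes. The log2 fold change of fasted against fed livers was -0.080 over both genotypes (95% interval -0.32 to 0.16, adjusted p = 0.630), so that a rise above 0.16 lay outside the interval.

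The NAD-dependent isocitrate dehydrogenase makes the first NADH of the cycle, and Idh3a encodes its catalytic alpha subunit (ENSMUSG00000032279, chromosome 9, 54586511 to 54604661). Idh3a was the least abundant of the 9 transcripts. In Nts+/+ livers it was at 26.0, 28.9 and 40.2 TMM-normalized CPM in fed mice and at 55.0, 70.3 and 44.1 in fasted mice. In Nts-/- livers it was at 27.1, 38.9 and 23.8 when fed and at 58.1, 49.5 and 44.0 when fasted. Every fasted mouse was above every fed mouse, although mouse 323 (fed) and mouse 295 (fasted) were close. The log2 fold change was 0.79 ± 0.16 (SE, 1.73-fold, adjusted p = 0.00204) over both genotypes, 0.83 in Nts+/+ livers (adjusted p = 0.0217) and 0.75 in Nts-/- livers (adjusted p = 0.0350). Within 1 genotype these calls were lost without single mice. In Nts+/+ livers the adjusted p was 0.0950, 0.0802 and 0.0995 without mice 254, 257 and 282, and in Nts-/- livers it was 0.122, 0.0982, 0.118 and 0.0804 without mice 277, 319, 284 and 290. Over both genotypes it was at most 0.00742 with any 1 mouse left out.

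The mitochondrial NADP-dependent isocitrate dehydrogenase, Idh2 (ENSMUSG00000030541, chromosome 7, 80094846 to 80115392), supplies NADPH in the matrix. It was at 162, 178 and 111 TMM-normalized CPM in fed and at 173, 132 and 136 in fasted Nts+/+ livers. The Nts-/- mice were at 109, 150 and 141 when fed and at 162, 131 and 174 when fasted. Fed and fasted mice overlapped in both genotypes. The log2 fold change over both genotypes was 0.096 (95% interval -0.19 to 0.39, adjusted p = 0.621).

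The oxoglutarate dehydrogenase complex turns oxoglutarate into succinyl-CoA. Ogdh (ENSMUSG00000020456, chromosome 11, 6291633 to 6356642) encodes its E1 subunit, which decarboxylates the substrate. Ogdh was at 148, 174 and 130 TMM-normalized CPM in fed and at 258, 277 and 216 in fasted Nts+/+ livers. In Nts-/- livers it was at 170, 135 and 164 when fed and at 191, 252 and 236 when fasted. The 6 fasted mice were all above the 6 fed mice. Fasted exceeded fed livers by a log2 fold change of 0.63 ± 0.11 (SE, 1.55-fold, adjusted p = 0.000771) over both genotypes, 0.73 in Nts+/+ livers (adjusted p = 0.00686) and 0.53 in Nts-/- livers (adjusted p = 0.0326). The call in Nts-/- livers was lost without mice 277, 303, 290 or 295 (adjusted p = 0.0589, 0.119, 0.120 and 0.0872).

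Dlst (ENSMUSG00000004789, chromosome 12, 85110833 to 85134091) encodes the E2 subunit, which carries the lipoyl arm of the same complex. It was at 153, 141 and 169 TMM-normalized CPM in fed and at 332, 273 and 218 in fasted Nts+/+ livers. The Nts-/- mice were at 159, 180 and 151 when fed and at 270, 305 and 299 when fasted. The highest fed mouse (303) was below the lowest fasted mouse (322). The log2 fold change was 0.83 in each genotype and 0.83 ± 0.11 (SE, 1.78-fold, adjusted p = 8.17e-05) over both. It passed the test with any 1 mouse left out, with an adjusted p of at most 0.0167 in Nts+/+ and 0.0147 in Nts-/- livers.

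Succinyl-CoA ligase pairs an alpha subunit, encoded by Suclg1 (ENSMUSG00000052738, chromosome 6, 73248382 to 73276911), with 1 of the beta subunits that make it form ATP or GTP. Suclg1 was at 164, 146 and 181 TMM-normalized CPM in fed and at 302, 253 and 224 in fasted Nts+/+ livers. In Nts-/- livers it was at 151, 178 and 183 when fed and at 295, 259 and 324 when fasted. All fasted mice were above all fed mice. Fasted exceeded fed livers by a log2 fold change of 0.72 ± 0.10 (SE, 1.65-fold, adjusted p = 0.000187) over both genotypes, 0.67 in Nts+/+ and 0.78 in Nts-/- livers, and it passed in each genotype with any 1 mouse left out.

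Sucla2 (ENSMUSG00000022110, chromosome 14, 73525319 to 73596142) encodes the ATP-forming beta subunit, and its difference was smaller. It was at 138, 128 and 160 TMM-normalized CPM in fed and at 179, 176 and 145 in fasted Nts+/+ livers, where the mice overlapped. The Nts-/- mice were at 122, 141 and 154 when fed and at 199, 163 and 192 when fasted, with no overlap. The log2 fold change was 0.32 ± 0.099 (SE, 1.25-fold, adjusted p = 0.0240) over both genotypes. It did not pass within Nts+/+ (0.23, adjusted p = 0.283) or Nts-/- livers (0.41, adjusted p = 0.0600). In the Nts-/- livers it passed in the Wald test of DESeq2 (adjusted p = 0.0259), with the trend in gene length removed (0.0489) and without mouse 319 (0.0401). The call over both genotypes was lost without mice 254, 257, 265, 282, 277, 284 or 295, with adjusted p values of 0.0578, 0.0595, 0.0503, 0.0626, 0.0670, 0.0597 and 0.0528.

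Fumarase hydrates fumarate to malate, and Fh1 (ENSMUSG00000026526, chromosome 1, 175600374 to 175625635) had the largest fold change of the 9 genes. It was at 157, 149 and 173 TMM-normalized CPM in fed and at 357, 309 and 248 in fasted Nts+/+ livers. In Nts-/- livers it was at 134, 158 and 179 when fed and at 366, 385 and 324 when fasted. The groups did not overlap, and the lowest fasted mouse was again 322. Fasted exceeded fed livers by a log2 fold change of 1.06 ± 0.11 (SE, 2.09-fold, adjusted p = 1.28e-05) over both genotypes, larger than that of 96.7% of all tested genes. It was 0.93 in Nts+/+ livers (adjusted p = 0.00148) and 1.19 in Nts-/- livers (adjusted p = 0.000248), and it passed in each with any 1 mouse left out.

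Mitochondrial malate dehydrogenase closes the cycle by oxidizing malate, and is encoded by Mdh2 (ENSMUSG00000019179, chromosome 5, 135778480 to 135790398). It was at 178, 188 and 158 TMM-normalized CPM in fed and at 284, 269 and 211 in fasted Nts+/+ livers. The Nts-/- mice were at 159, 162 and 201 when fed and at 253, 260 and 273 when fasted. All fasted mice were above all fed mice, although mouse 319 (fed) and mouse 322 (fasted) were close. The log2 fold change was 0.57 ± 0.10 (SE, 1.48-fold, adjusted p = 0.000853) over both genotypes, 0.54 in Nts+/+ (adjusted p = 0.0189) and 0.59 in Nts-/- livers (adjusted p = 0.0127). In Nts+/+ livers the call was lost without mice 254, 323, 265 or 282 (adjusted p = 0.0645, 0.0562, 0.0623 and 0.0827), and in Nts-/- livers without mice 277 or 303 (0.0634 and 0.0543). Over both genotypes the adjusted p was at most 0.00357 with any 1 mouse left out.

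Levels of different genes were compared per kilobase of transcript. Suclg1 (146 ± 41.6 TMM-normalized CPM per kilobase, SD over the 12 mice) and Mdh2 (144 ± 32.4) were highest and did not differ beyond their spread. Idh2 (83.9 ± 13.6), Dlst (65.9 ± 21.1), Sucla2 (53.0 ± 8.22), Fh1 (46.3 ± 18.4) and Cs (39.9 ± 5.50) followed, each within the spread of its neighbor but for the step from Mdh2 to Idh2. Ogdh (28.8 ± 7.43) and Idh3a (16.3 ± 5.58) were lowest, each below its upper neighbor by more than the SD of either. These spreads include the fasting difference and do not use that the genes were measured in the same mice, and the order was not the same in both states. In fed livers Fh1 (means 30.1 in Nts+/+ and 29.7 in Nts-/-) was below Cs (41.0 and 40.9) and Sucla2 (47.7 and 46.6). In fasted livers Fh1 (57.6 and 67.8) was above Cs (42.1 and 35.7). Per kilobase of coding sequence the order kept Suclg1 (214) and Mdh2 (213) first and Idh3a (38.4) last, but put Dlst (162) and Fh1 (161) above Sucla2 (114) and Idh2 (108).

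Of 12 partner subunits and isoforms of the cycle, all tested, 3 passed the fasting test over both genotypes, with 1 higher and 2 lower, and the median log2 fold change of the 12 was 0.058. This count is near or below the share of all tested genes that passed (32.8%). With 1 mouse left out the count ranged from 2 (without mice 265, 277 or 295) to 4. Under the alternatives that leave out no mouse it ranged from 3 to 4. The higher one was Idh3g (0.31, adjusted p = 0.0247), a regulatory partner of Idh3a. The lower ones encode cytosolic enzymes, Aco1 (-0.49, adjusted p = 0.000911), an aconitase that also acts as an iron-regulatory protein, and Idh1 (-0.74, adjusted p = 3.73e-05), which makes NADPH in the cytosol. Whether the shares of the 9 and of the 12 genes differ was not tested.

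Idh3b, another regulatory partner of Idh3a, had a log2 fold change of 0.14 (adjusted p = 0.268). Dld, the E3 subunit that reoxidizes the lipoyl arm of the Ogdh and Dlst complex, had one of 0.16 (adjusted p = 0.231). The 4 subunits of succinate dehydrogenase, which stands between Suclg1 and Fh1 in the cycle, were at -0.13 (Sdha), 0.027 (Sdhb), 0.072 (Sdhc) and 0.26 (Sdhd), with adjusted p values of 0.390, 0.894, 0.594 and 0.0556. Neither Suclg2, the GTP-forming beta subunit (0.16, adjusted p = 0.294), nor cytosolic Mdh1 (0.045, adjusted p = 0.806) nor Dhtkd1, an E1 relative of Ogdh (-0.098, adjusted p = 0.577), passed.

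**Figure D2:**
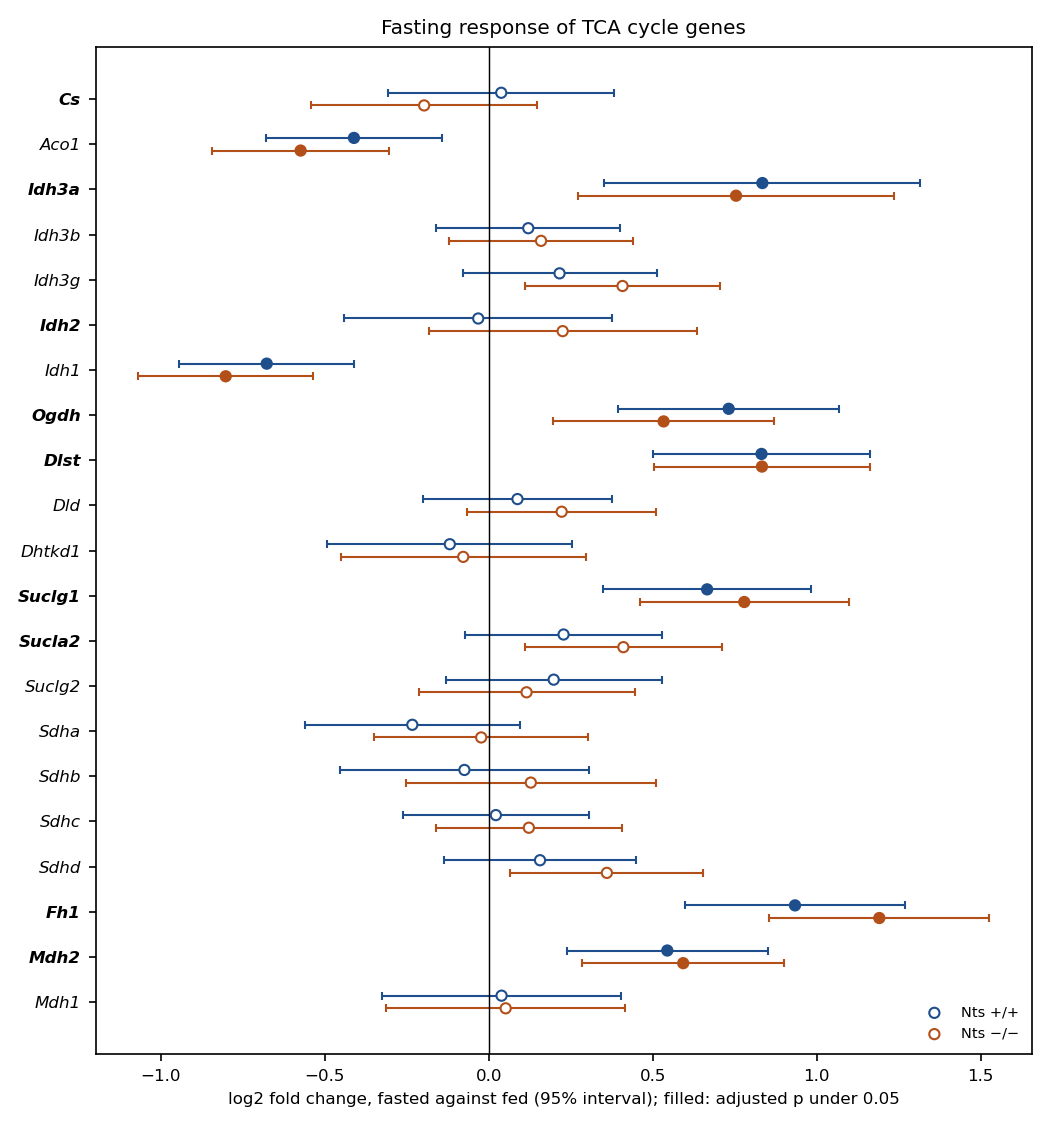
Log2 fold change of fasted against fed livers (horizontal axis) with its 95% interval for the 9 enzymes (bold) and 12 partner genes, in the order of the cycle, in Nts+/+ (blue) and Nts-/- (orange) livers. Filled points have an adjusted p under 0.05. Idh3a, Ogdh, Dlst, Suclg1, Fh1 and Mdh2 are filled to the right of 0 in both genotypes, and Aco1 and Idh1 to the left.

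Ratios of counts within a mouse compared 2 transcripts directly, with a two-sided exact permutation test of 6 fasted against 6 fed mice and adjustment over 10 ratio tests (smallest possible p = 0.00216). They use the same counts as the fold changes above and so are not independent of them. The log2 ratio of Mdh2 to Mdh1 was -1.60, -1.37 and -1.91 in fed and -1.26, -1.05 and -0.997 in fasted Nts+/+ mice. In Nts-/- mice it was -1.68, -1.89 and -1.72 when fed and -1.27, -1.18 and -1.22 when fasted. Every fasted mouse was above every fed mouse, and the difference of 0.53 passed (n = 6 per state, permutation adjusted p = 0.0108).

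The log2 ratio of Cs to Idh3a was 2.27, 2.09 and 1.51 in fed and 1.22, 1.01 and 1.22 in fasted Nts+/+ mice. In Nts-/- mice it was 2.31, 1.78 and 1.98 when fed and 1.04, 1.01 and 1.13 when fasted. The fasted mice were all lower, by a mean of -0.88 (n = 6 per state, permutation adjusted p = 0.0108). The ratio of Idh2 to Idh3a differed by -0.70, with overlapping mice, and did not pass after adjustment (n = 6 per state, permutation p = 0.0238, adjusted p = 0.0794). Mouse 323 was the lowest of the fed mice in this ratio (1.46), and without it the difference was -0.85 (permutation adjusted p = 0.0289). With other mice left out it reached -0.58, and the permutation adjusted p reached 0.159. The ratios of Ogdh to Dlst (-0.19) and of Sucla2 to Suclg2 (0.16) did not pass (permutation adjusted p = 0.424 for each).

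**Figure D3:**
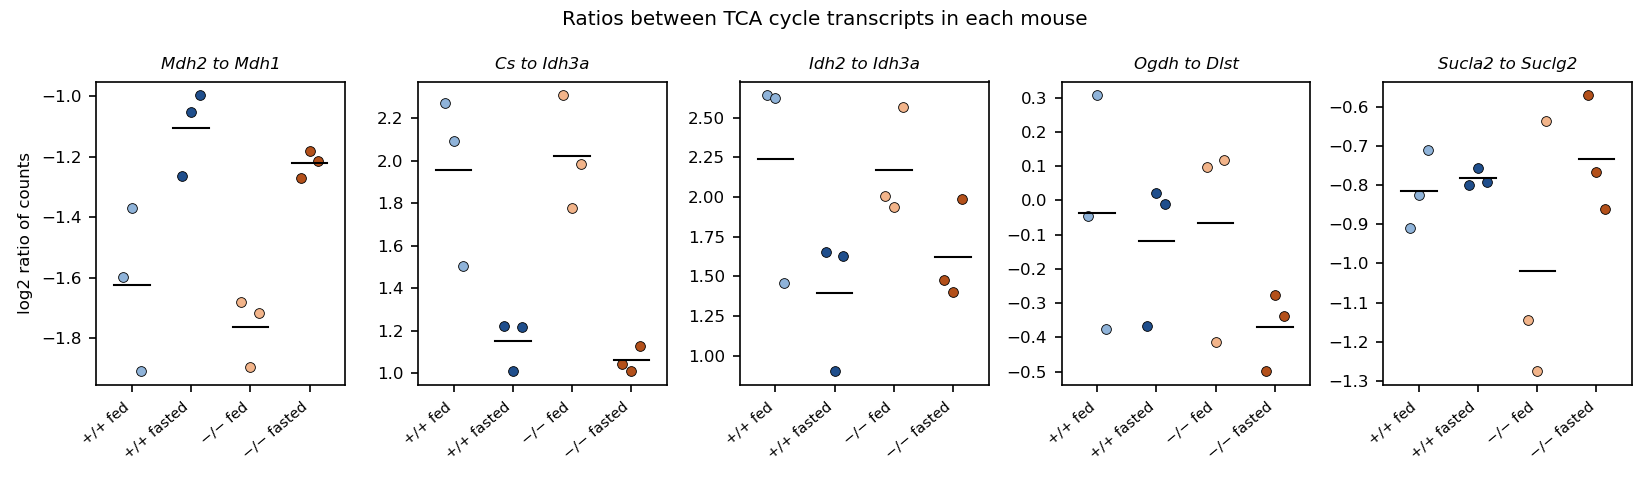
Log2 ratio of counts of 2 transcripts in each mouse (vertical axis, not starting at 0 and different in each panel) by genotype and feeding state. Points are mice and lines are means of 3. Fasted mice lie above fed mice for Mdh2 to Mdh1 and below them for Cs to Idh3a, and the other 3 ratios overlap.

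The comparison of genotypes asked whether these transcripts differed between livers labelled Nts-/- and Nts+/+ within a feeding state. In fed livers 0 of the 9 genes differed in edgeR's test, 0 had an unadjusted p under 0.05, and DESeq2 called 0. Of all tested genes 0% passed in edgeR (876 had an unadjusted p under 0.05, and DESeq2 called 12). In fasted livers 0 of the 9 genes passed, 0 had an unadjusted p under 0.05 and DESeq2 called 0, where 0% of all genes passed in edgeR (685 at an unadjusted p under 0.05, and 4 in DESeq2). The mice of both genotypes overlapped for all 9 genes in each state.

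The log2 fold changes of livers labelled Nts-/- against those labelled Nts+/+ were small against their intervals. In fed livers they ran from -0.17 for Idh2 (95% interval -0.58 to 0.24) to 0.084 for Dlst (-0.24 to 0.41), with a median of -0.0060 over the 9 genes. In fasted livers they ran from -0.24 for Cs (-0.58 to 0.11) to 0.23 for Fh1 (-0.096 to 0.57), with a median of 0.084. Fasted Fh1 was at 305 ± 54.7 TMM-normalized CPM in Nts+/+ and 358 ± 31.1 in Nts-/- livers (SD, n = 3 each). Fasted Cs was at 124 ± 20.1 in Nts+/+ and 105 ± 12.6 in Nts-/- livers (SD, n = 3 each). Without mouse 322, the fasted Nts+/+ mouse that was low for all 9 genes, the median in fasted livers was -0.057 in place of 0.084.

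Averaged over both feeding states, the genotype differences ran from -0.12 (Cs) to 0.11 (Suclg1). Of the 9 genes 0 passed in edgeR, 0 had an unadjusted p under 0.05 and DESeq2 called 0, where 0% of all genes passed in edgeR (859 at an unadjusted p under 0.05, and 16 in DESeq2). None of the 5 ratios differed between genotypes, with permutation adjusted p values of 0.631 or more (n = 6 per genotype).

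**Figure D4:**
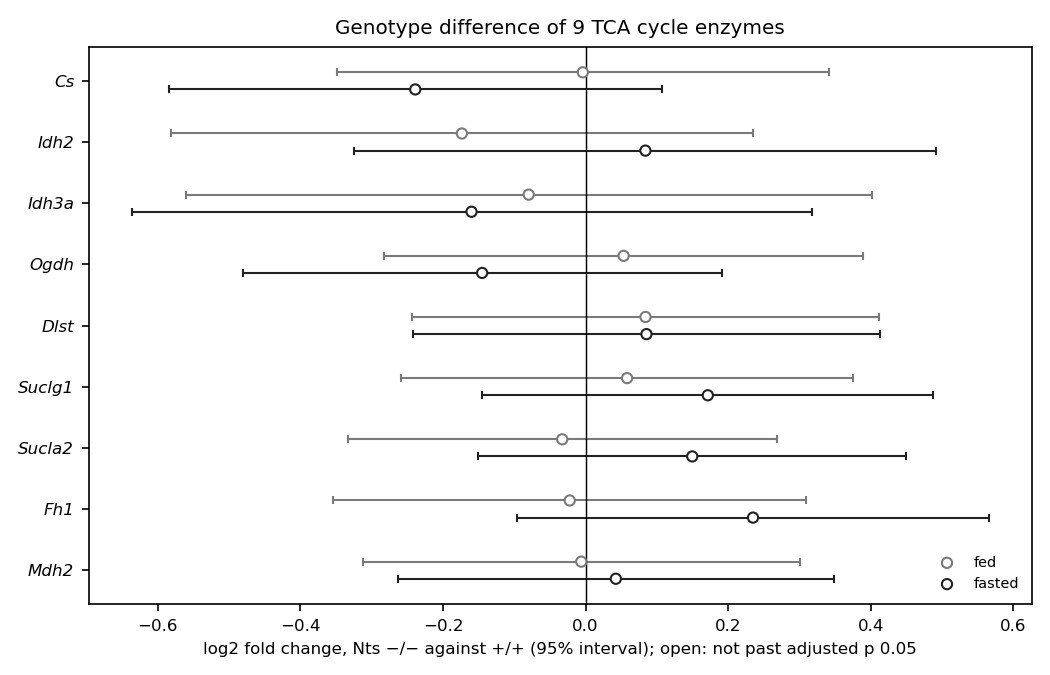
Log2 fold change of livers labelled Nts-/- against those labelled Nts+/+ (horizontal axis) with its 95% interval for the 9 enzymes in fed (gray) and fasted (black) mice. All 18 intervals include 0, and all points are open since none passed.

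The difference of the fasting response between genotypes was tested directly as an interaction. Of the 9 genes 0 passed, 0 had an unadjusted p under 0.05 and DESeq2 called 0, where 0% of all genes passed in edgeR (663 at an unadjusted p under 0.05, and 3 in DESeq2). The difference on the log2 scale (Nts-/- minus Nts+/+) ran from -0.24 for Cs (95% interval -0.72 to 0.25) to 0.26 for both Fh1 (-0.21 to 0.73) and Idh2 (-0.32 to 0.83). For Dlst, with 0.83 in each genotype, it was 0.0014 (-0.46 to 0.46). The median over the 9 genes was 0.048, and -0.070 without mouse 322.

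Genes around the cycle were read from lists chosen by function, over both genotypes, where 32.8% of all tested genes passed in either direction and 16.0% as higher. Of 16 genes of carbon entry and exit, 15 were tested and 9 passed, with 6 higher and 3 lower (32.8% of all genes in either direction). The 4 with the smallest p were Acly, which splits exported citrate for lipid synthesis (log2 fold change -2.57, adjusted p = 1.19e-05), Pcx, which refills oxaloacetate from pyruvate (1.08, adjusted p = 1.96e-05), and the aminotransferases Got1 (1.16, adjusted p = 0.000325) and Gpt2 (1.12, adjusted p = 0.000529). Within 1 genotype, 4 of these 15 genes passed in Nts+/+ livers (18.1% of all genes) and 5 in Nts-/- livers (16.8% of all genes). Of 8 mitochondrial carriers 6 passed, with 5 higher and 1 lower (32.8% of all genes in either direction), and 4 passed in each genotype alone. The dicarboxylate carrier Slc25a10 (0.81, adjusted p = 0.000163), the aspartate-glutamate carrier Slc25a13 (0.57, adjusted p = 0.00153) and the pyruvate carrier subunit Mpc1 (0.47, adjusted p = 0.00174) were higher, and the citrate carrier Slc25a1 was lower (-0.87, adjusted p = 3.47e-05).

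Of 4 assembly factors of succinate dehydrogenase only Sdhaf1 passed (0.75, adjusted p = 0.000222). Of 3 genes that make or attach the lipoyl group of Dlst 0 passed in edgeR, 1 had an unadjusted p under 0.05 (Lipt1, adjusted p = 0.0527) and DESeq2 called 0. Without mice 323, 282 or 319 edgeR called 1. Of 13 genes of mitochondrial import, outer membrane and DNA upkeep 9 passed, all higher (16.0% of all genes), led by Tomm20 (0.91, adjusted p = 5.26e-06), a receptor of protein import, and with a median of 0.38 over the 13. With 1 mouse left out the count ranged from 6 to 9. In each genotype alone 4 of the 13 passed, all higher (8.91% of all genes in Nts+/+ and 7.70% in Nts-/- livers). Of 10 regulators 4 passed, a share near that of all genes in either direction (32.8%), and all 4 were higher (16.0% of all genes). They were Ppara (0.75, adjusted p = 0.00207), the fatty acid receptor of the fasting response, and Ppargc1a (0.87, adjusted p = 0.0155), a coactivator of mitochondrial genes. The others were Esrra (0.53, adjusted p = 0.0144), a nuclear receptor that works with Ppargc1a, and Pprc1 (0.44, adjusted p = 0.0384), a relative of Ppargc1a. In each genotype alone 1 of the 10 passed. Over both genotypes, fed and fasted mice overlapped for Ppargc1a, Esrra and Pprc1, but not for Ppara. Ppargc1a in fasted Nts-/- livers was at 15.1 ± 9.21 TMM-normalized CPM (SD, n = 3). Its lowest mouse there (284, at 6.78) was below every fed Nts-/- mouse (6.84 to 8.06). Of 10 genes known to respond to fasting 9 passed, with 4 higher and 5 lower (32.8% of all genes in either direction). Cpt1a of fatty acid import (1.60, adjusted p = 1.52e-05) and the hormone Fgf21 (2.96, adjusted p = 4.23e-05) were higher. The lipogenic factor Srebf1 (-3.11, adjusted p = 1.25e-05) and fatty acid synthase, Fasn (-2.44, adjusted p = 0.000233), were lower.

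Promoter windows of RefSeq (build GRCm38.p6, 250 bases before to 50 after a start) were matched for 8 of the 9 genes, all but Idh3a. They are shown because 6 of these 8 genes passed as higher in fasted livers over both genotypes, whereas Cs and Idh2 did not pass. Of the 6, Sucla2 passed in neither genotype alone. The proximal stretch of Cs, which did not pass, and that of Fh1, which had the largest fold change, are given 5′ to 3′ on the strand of the gene, from 140 bases before the start up to the start. Capitals mark CCAAT boxes (CCAAT, or ATTGG on the other strand) and SP1 motifs (GGGCGG, or CCGCCC on the other strand).
Cs, chr10:128337587-128337726, plus strand: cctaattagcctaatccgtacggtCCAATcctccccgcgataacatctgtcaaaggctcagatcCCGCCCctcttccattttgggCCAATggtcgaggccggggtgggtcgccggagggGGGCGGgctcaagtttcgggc
Fh1, chr1:175625636-175625775, minus strand: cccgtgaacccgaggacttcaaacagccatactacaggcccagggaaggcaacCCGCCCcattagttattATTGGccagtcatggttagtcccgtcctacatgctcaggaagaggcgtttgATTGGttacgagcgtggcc

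Both stretches hold CCAAT boxes and SP1 motifs. Of the 8 genes, 7 had at least 1 window with GGGCGG (all but Suclg1) and 4 had one with CCAAT (Cs, Idh2, Ogdh and Fh1). Counted per window and not per gene, GGGCGG was in 35.7% and CCAAT in 37.4% of all 32851 windows. The full CREB motif TGACGTCA was found in Ogdh and Mdh2 and in 1.79% of all windows. It is in capitals below, with a CCAAT box in Ogdh. The Mdh2 stretch lies inside the gene as the deposited table places it, and upstream of the RefSeq start. So do the upstream bases of Sucla2 (chr14:73552536-73552785, with the gene from 73525319) and of some Ogdh windows, and in part those of Suclg1 and Idh2. The GGGCGG match of Sucla2 is thus inside the gene as that table places it.
Ogdh, chr11:6291535-6291564, plus strand: acCCAATtctgTGACGTCAcgtcacgccca
Mdh2, chr5:135778511-135778540, plus strand: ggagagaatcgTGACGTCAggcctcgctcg

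Of the other motifs searched on both strands, the core of the NRF1 motif (GCGCATGC, 2.71% of all windows) and the E-box CACGTG (7.15%) were found in Ogdh, and the ETS motif CCGGAAG (8.86%) in Dlst. The ERR motif TCAAGGTCA (0.423%) and the FoxO motif TGTTTAC (3.65%) were in none of the 8. A match describes letters in this window, not binding. Ogdh has 6 windows and so had more letters searched than the other genes.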

How the data were processed

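Total RNA from snap-frozen livers of 12 mice was sequenced. The authors deposited a single table whose values are expected counts (estimates of the reads from each gene), unscaled between mice. The submitters' processing notes name Trimmomatic, RSEM and GRCm38. The aligner is not given in the sources used here, and the paper's text gives no statistical model for the RNAseq. All count columns belong to the 12 mice.

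Expected counts were rounded. In R 4.3.3, edgeR 4.0.16 kept 13812 genes (filterByExpr), scaled by TMM and fitted 1 robust quasi-likelihood model with a mean per group. The contrasts were fasted against fed in each genotype and over both, Nts-/- against Nts+/+ in each feeding state and over both, and their interaction. Adjusted p values under 0.05 passed. The scripts were tested on simulated data. Per-kilobase levels used canonical transcripts of GENCODE, matched for 99.2% of tested genes. Count ratios (0.5 added) were compared by exact permutation with scipy 1.17.1. P values measure the spread between mice, and depth (a floor of 3 counts is at most 0.136 CPM) covers counting error only.

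Alternatives were RLE and upper quartile scaling, DESeq2 1.42.0, no count filter, no genes of the mitochondrial DNA, removal of the trend with gene length, an adjusted p under 0.10, only the 6 mice compared, no addition to the counts in ratios, and leaving out each mouse. All 9 enzymes and 12 partner genes are named, and of each other list up to 4 genes past the threshold with the smallest p. The enzymes and lists were chosen with earlier results of these data known. Some genes of these lists are not reported here.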

Additional observations from a re-analysis of the deposited data

How the results depend on the processing

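Over both genotypes the 9 enzymes kept a count of 7 calls under the 7 alternatives run for it that leave out no mouse, and between 6 and 7 with 1 mouse left out. With 1 mouse left out, the calls ranged from 4 to 6 in Nts+/+ and from 3 (without mouse 277) to 6 in Nts-/- livers, the median genotype difference from -0.057 to 0.20 in fasted livers, and the median interaction from -0.070 to 0.17. The log2 ratio of Idh2 to Idh3a ranged from -0.85 to -0.58 for fasting. For genotype, Cs to Idh3a ranged from -0.17 to 0.13, Idh2 to Idh3a from -0.10 to 0.24 and Sucla2 to Suclg2 from -0.14 to 0.0037. Calls over all genes ranged from 1224 to 2418 in Nts+/+ (1326, 1596 and 1224 without mice 254, 257 and 282) and from 1358 to 2631 in Nts-/- livers (1358, 1523 and 1365 without mice 277, 284 and 290).

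Values that changed sign had not passed the test, and the cause was not tested. The fasting difference in Nts+/+ livers became -0.0044 for Cs with upper quartile scaling and 0.024 for Idh2 with the length trend removed. The latter also turned genotype differences in fed livers (Cs to 0.0076, Ogdh to -0.0087, Mdh2 to 0.040) and fasted livers (Mdh2 to -0.033), and interactions (Suclg1 to -0.014, Mdh2 to -0.073). The Dlst interaction was -0.0032 with no count filter. With 1 mouse left out, the fasting difference in Nts+/+ livers ranged from -0.071 to 0.16 for Cs and from -0.21 to 0.11 for Idh2. Genotype differences in fed livers ranged from -0.087 to 0.15 (Cs), -0.13 to 0.082 (Fh1), -0.32 to 0.13 (Idh3a), -0.12 to 0.059 (Mdh2), -0.042 to 0.17 (Ogdh), -0.11 to 0.060 (Sucla2) and -0.018 to 0.14 (Suclg1). In fasted livers they ranged from -0.057 to 0.24 (Dlst), -0.0042 to 0.21 (Idh2), -0.31 to 0.037 (Idh3a) and -0.076 to 0.12 (Mdh2), and over both states from -0.13 to 0.025 (Idh2), -0.041 to 0.059 (Mdh2) and -0.094 to 0.011 (Ogdh). Interactions ranged from -0.14 to 0.15 (Dlst), -0.29 to 0.16 (Idh3a) and -0.070 to 0.17 (Mdh2).

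No paired analysis was possible because the groups share no replicate numbers. With 3 mice per group, the genotype differences of the enzymes are known only within their intervals. The lowest count behind an enzyme was 591, so counting error is small beside the spread between mice.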
